A study of Mus musculus with 15 samples.

Results

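Beige adipocytes made in inguinal fat by CL316243, an agonist of the beta-3 adrenergic receptor, were compared with white adipocytes of the same depot. Sorted UCP1-positive adipocytes of inguinal fat from mice given CL316243 (CL, 3 arrays) were set against sorted UCP1-negative adipocytes of inguinal fat from untreated mice (WAT, 4 arrays). The arrays were chosen by their titles and make up 7 of the 15 arrays analysed. All 25206 probe sets were used. RNA of sorted adipocytes from mice aged 8 to 10 weeks, kept on chow, was amplified from 2 ng of total RNA and hybridised to 1-colour Affymetrix arrays. The other 8 arrays held UCP1-positive inguinal adipocytes after rosiglitazone, an agonist of the nuclear receptor PPARG (RG, 3 arrays), UCP1-positive brown adipocytes sorted from the brown fat of mice without treatment (BAT, 3 arrays), and UCP1-positive inguinal adipocytes after roscovitine, an inhibitor of cyclin-dependent kinases (RS, 2 arrays). All mice are labelled UCP1/Tomato, while the sorting marker is labelled UCP1(GFP), which leaves unclear which fluorescent reporter was sorted on. The labels give no dose, treatment time, sex, array batch or statement that arrays came from separate animals, so p-values cover the variation among these arrays, which may be technical. UCP1-positive inguinal cells of untreated mice are not among the groups, so the effect of the drug and that of the UCP1 gate cannot be told apart. Ucp1 itself was selected by the gate, and its difference is a description, not an independent result.

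CL316243 activates the beta-3 adrenergic receptor of adipocytes, as noradrenaline from sympathetic nerves does. The receptor raises cyclic AMP (cAMP), which activates protein kinase A. The kinase starts the breakdown of stored triglyceride and, through CREB and the coactivator PGC-1alpha, the transcription of Ucp1 and of genes for mitochondria. Beige adipocytes are cells of white fat depots that take on this heat-producing state, in which fatty acids are oxidised and UCP1 lets protons back into the mitochondrion without ATP synthesis.

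Values are log2 expression values, so a difference of 1 is a 2-fold difference. Values of single arrays are given in the order CL 1, CL 3 and CL 4, then WAT 1, WAT 2, WAT 3 and WAT 4, and errors after ± are standard errors of the limma fit (n = 3 CL and 4 WAT arrays). A probe set was called where limma's Benjamini-Hochberg adjusted p was under 0.05. The call rate was 25.2% of all probe sets, with 15.2% higher and 9.97% lower in CL cells. The median log2 difference over all probe sets was 0.13, and 15315 of 25206 differences were positive. Differences and directions below are CL minus WAT and were not corrected for that shift. The lower end of the distribution differed between the groups: the 10th percentile of an array was 1.97 to 2.03 in CL and 1.51 to 1.68 in WAT. Among 15275 probe sets with a mean under 4 over the 7 arrays, 3024 were called higher and 436 lower, against 515 and 499 after quantile normalization. Among the 9931 with a mean of 4 or more, 814 (8.20%) were called higher and 2076 (20.9%) lower, against 1089 and 1049 after quantile normalization. The share of calls that were higher was 60.4%, but 50.7% after median centring and 50.9% after quantile normalization. WAT 4 stood apart from the other WAT arrays in adipocyte, macrophage and stromal genes, as given below.

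Thermogenic genes, which serve heat production, were higher in CL cells. Of 18 measured, 17 were called higher and 0 lower, with a median log2 difference of 2.30. The UCP1 gate fixed the direction of Ucp1 in this list. All lists were chosen with earlier results of these data known, so their counts are a description and not independent support. Ucp1 had 10.53, 10.52 and 10.19 in CL cells, against 4.03, 4.47, 4.39 and 3.20 in WAT cells. Ppargc1a, which encodes the coactivator PGC-1alpha, had 5.36, 5.37 and 6.33 in CL cells, against 4.52, 4.30, 4.41 and 3.86 in WAT cells. All 3 CL arrays lay above all 4 WAT arrays for both genes, as they did for 23.7% of all probe sets (14.1% had all CL arrays below), and Ppargc1a was 2.67-fold higher (log2 difference 1.41 ± 0.31, adjusted p = 0.00536). The promoter windows of these genes are shown because both are textbook targets of the cAMP pathway that the drug engages. Each window covers 250 bases before and 50 after the RefSeq start site of build GRCm38.p6, on the gene's strand, and capitals mark the letters TGACG (or CGTCA, the same motif on the other strand), the core of the cAMP response element. The Ucp1 window is chr8:83290098-83290397 (plus strand), with the motif starting at -147, and the Ppargc1a window is chr5:51567676-51567975 (minus strand), with the motif at -49.
Ucp1: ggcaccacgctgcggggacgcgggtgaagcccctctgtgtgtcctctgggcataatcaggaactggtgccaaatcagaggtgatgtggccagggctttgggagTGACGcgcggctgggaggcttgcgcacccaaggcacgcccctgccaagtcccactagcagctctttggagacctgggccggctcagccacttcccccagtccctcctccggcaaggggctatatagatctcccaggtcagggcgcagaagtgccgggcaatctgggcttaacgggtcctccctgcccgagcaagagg
Ppargc1a: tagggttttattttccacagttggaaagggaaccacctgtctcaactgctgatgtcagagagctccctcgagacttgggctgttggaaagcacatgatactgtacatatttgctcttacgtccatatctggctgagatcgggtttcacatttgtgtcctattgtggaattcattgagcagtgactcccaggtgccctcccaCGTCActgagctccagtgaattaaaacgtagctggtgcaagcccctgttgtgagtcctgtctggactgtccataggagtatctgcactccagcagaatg
The motif was found on either strand in 4 of the 15 thermogenic genes with a window (26.7%), close to the 23.0% of all 27025 genes in the table. A match describes the letters and shows no binding.

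Elovl3, which elongates very long fatty acids, had 9.05, 8.98 and 8.70 in CL cells, against 3.02, 3.54, 3.67 and 2.55 in WAT cells. Cox7a1, the heart, muscle and brown fat form of a cytochrome c oxidase subunit, had 9.20, 9.22 and 9.87 in CL cells, against 5.48, 5.22, 5.33 and 4.65 in WAT cells. The gap between the groups was wider than the range within either group for both genes. Cidea, which coats lipid droplets, had 9.77, 9.53 and 10.43 in CL cells, against 6.60, 6.25, 6.15 and 4.52 in WAT cells. Cox8b, a further tissue-specific oxidase subunit, had 10.19, 10.28 and 11.08 in CL cells, against 8.60, 8.28, 8.58 and 7.12 in WAT cells, a log2 difference of 2.37 ± 0.33 (adjusted p = 0.000391). WAT 4 was the lowest array for Elovl3, Cox7a1, Cidea and Cox8b. Otop1, a proton channel, had 7.51, 7.08 and 7.85 in CL cells, against 4.57, 4.51, 4.31 and 3.32 in WAT cells. Dio2, the deiodinase that makes active thyroid hormone, was low on all arrays, with 3.66, 4.30 and 4.15 in CL cells, against 2.71, 3.03, 3.03 and 2.94 in WAT cells. Its call (log2 difference 1.11 ± 0.34, adjusted p = 0.0285) was lost without CL 3 (0.0908), CL 4 (0.0895), WAT 1 (0.0591) or WAT 4 (0.0518) and after quantile normalization (0.0835).

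By the naming rule for single genes, the 12 largest increases also held Slc27a2, Serpina1b, Phospho1, Adtrp, Ppp1r3b, Gys2 and Acot11. Slc27a2 activates very long fatty acids and had 5.98, 6.21 and 4.97 in CL cells, against 2.03, 2.57, 1.95 and 2.23 in WAT cells. Adtrp, a hydrolase of fatty acid esters of hydroxy fatty acids, had 5.59, 5.92 and 6.13 in CL cells, against 3.44, 3.37, 3.34 and 3.00 in WAT cells. Adtrp was thus 6.03-fold higher in CL cells (log2 difference 2.59 ± 0.33, adjusted p = 0.000258), and its arrays did not overlap. Acot11, which cleaves acyl-CoA to fatty acid and coenzyme A, had 5.72, 6.28 and 6.37 in CL cells, against 3.87, 3.88, 3.44 and 3.51 in WAT cells (log2 difference 2.45 ± 0.22, adjusted p = 1.94e-05). Phospho1, a phosphatase of phosphocholine and phosphoethanolamine, had 7.50, 7.69 and 7.07 in CL cells, against 3.82, 4.55, 4.25 and 4.75 in WAT cells. Serpina1b, a secreted protease inhibitor of a cluster of near-identical genes, had 6.23, 6.27 and 3.07 in CL cells, against 0.90, 1.82, 2.77 and 2.15 in WAT cells. CL 4 lay far below the other CL arrays for Serpina1b and just above WAT 3, and probes of this cluster may not tell its members apart.

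**Figure D1:**
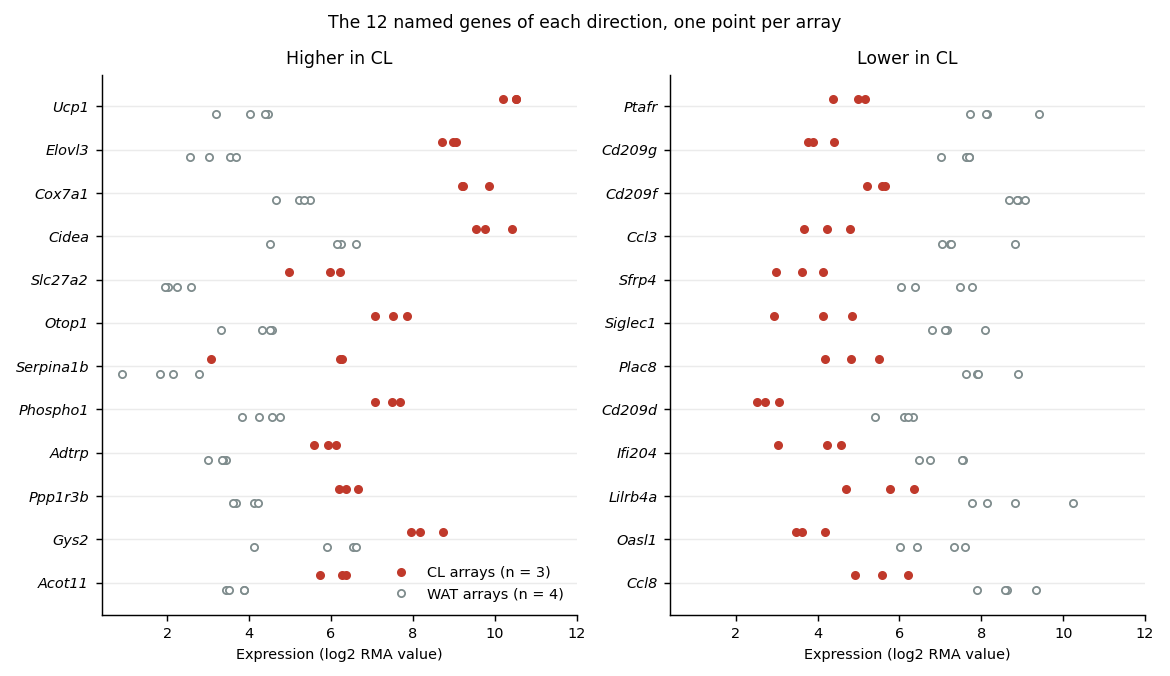
Expression (log2 value, x axis) of the 12 genes named as most increased and the 12 named as most decreased in CL cells, 1 point per array (filled, 3 CL arrays; open, 4 WAT arrays). The groups do not overlap for any gene shown, which the naming rule required; Serpina1b has 1 CL array (CL 4, at 3.07) close to the WAT arrays.

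The labelled cell type was checked against markers of mature adipocytes. All 22 measured markers had a positive log2 difference, with a median of 0.82, and 4 were called higher and 0 lower. Their summed level was 14.54 to 14.92 in CL arrays and 13.01 to 14.43 in WAT arrays, and the lowest value was that of WAT 4. Adipoq, the gene of adiponectin, had 9.91, 9.87 and 10.51 in CL cells, against 10.47, 9.84, 10.39 and 7.85 in WAT cells. The groups overlapped and Adipoq was not called (log2 difference 0.46 ± 0.45, adjusted p = 0.471). Fabp4, a carrier of fatty acids, had 12.12, 12.00 and 12.00 in CL cells, against 11.26, 11.40, 11.28 and 10.78 in WAT cells (log2 difference 0.86 ± 0.16, adjusted p = 0.00251). Both groups thus carried adipocyte RNA. The number of markers called depended on single arrays: 2 without CL 4, 9 without WAT 1 and 8 without WAT 3. Plin1, Lipe and Pparg, which encode a droplet coat, hormone-sensitive lipase and the master regulator of fat cells, had log2 differences of 0.96, 0.83 and 0.42 and adjusted p-values of 0.102, 0.106 and 0.077. Plin1 and Pparg were called without WAT 1 (adjusted p = 0.046 and 0.0395), and Pparg also after quantile normalization (0.0346).

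Cells other than adipocytes left RNA in both groups. In such bulk samples, fewer cells of a type and less RNA per cell cannot be told apart. Macrophage markers had a summed log2 level of 9.41 to 10.14 in CL arrays and 11.59 to 12.64 in WAT arrays, highest in WAT 4, and none of the 4 defining markers (Adgre1, Cd68, Csf1r and Mrc1) lay below the median of the CL arrays. Stromal progenitor markers had 11.70 to 12.46 in CL and 12.73 to 13.89 in WAT, with WAT 4 again highest. Endothelial markers had 11.40 to 12.47 in CL and 10.68 to 12.13 in WAT, with WAT 4 lowest. The part of these cells in the differences below was not tested.

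**Figure D2:**
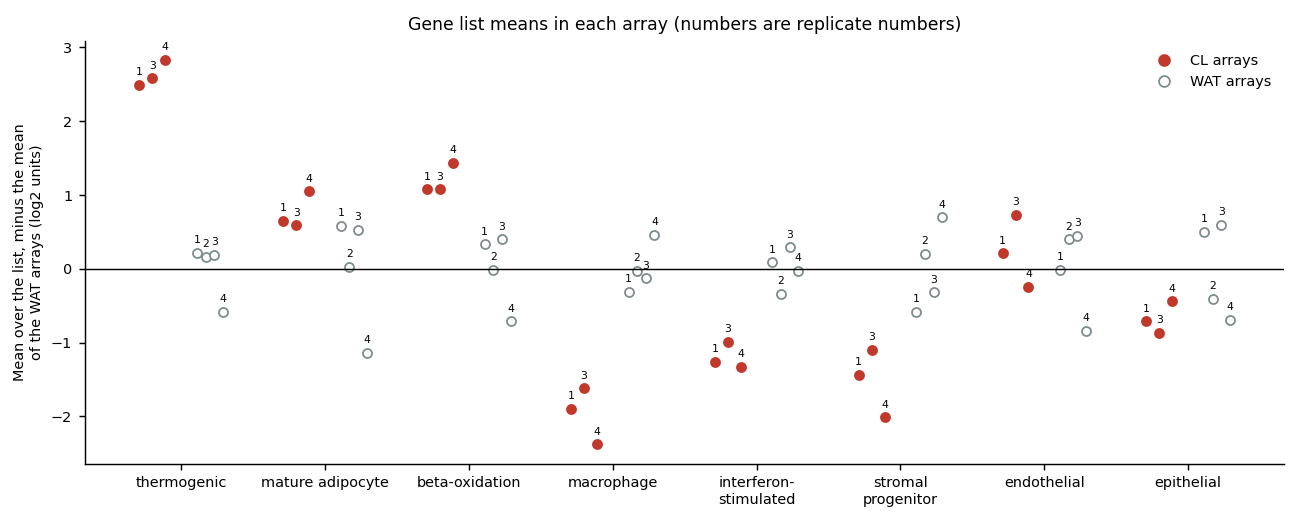
Mean of each gene list in each array, minus the mean over the 4 WAT arrays (y axis, log2 units), for the 3 CL arrays (filled) and 4 WAT arrays (open), numbered by replicate. CL arrays lie at 2.49 to 2.83 for thermogenic genes against -0.58 to 0.22 in WAT, and at -2.38 to -1.62 for macrophage markers against -0.31 to 0.46 in WAT; endothelial markers overlap, and epithelial markers are highest in WAT 1 and WAT 3.

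Genes that carry the adrenergic signal moved in both directions. Of 22 measured genes of receptor coupling and cAMP signalling, 6 were called higher (27.3%) and 3 lower (13.6%), with a median of 0.02. Over all probe sets 15.2% were called higher and 9.97% lower, so the lower share of the list was near that of all. The list had 3 higher and 2 lower without CL 4, and 4 and 1 without WAT 4. Adcy3, an adenylyl cyclase that makes cAMP, had 7.85, 7.68 and 7.60 in CL cells, against 5.92, 6.15, 5.73 and 6.23 in WAT cells. Adcy3 was thus 3.25-fold higher (log2 difference 1.70 ± 0.31, adjusted p = 0.00185), with no overlap. Prkar2b, the regulatory subunit of protein kinase A abundant in adipocytes, had 8.98, 9.10 and 9.29 in CL cells, against 8.10, 7.31, 8.02 and 6.04 in WAT cells (log2 difference 1.76 ± 0.36, adjusted p = 0.004). Pde4d, a phosphodiesterase that degrades cAMP, had 5.94, 5.47 and 5.78 in CL cells, against 4.63, 4.88, 4.96 and 4.49 in WAT cells (log2 difference 0.99 ± 0.17, adjusted p = 0.0014). So a gene that makes cAMP and one that removes it were both higher. Pde3b, the insulin-activated phosphodiesterase of fat cells, had a log2 difference of 0.63 ± 0.24 and was not called (adjusted p = 0.0622), though it was without WAT 1 (0.0266). Crtc3, a coactivator of CREB, had 4.71, 4.84 and 4.68 in CL cells, against 5.52, 5.64, 5.57 and 6.11 in WAT cells (log2 difference -0.97 ± 0.19, adjusted p = 0.00266). Gnas, the stimulatory G protein, had a low probe set, and its call (log2 difference 0.41 ± 0.14, adjusted p = 0.0397) was lost when CL 1, CL 4 or any WAT array was left out (0.0536 to 0.161), after quantile normalization (0.251) and after median centring (0.0724).

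Genes that cAMP or other stimuli induce within hours were not higher. Of 23 cAMP-induced and immediate early genes, 0 were called higher and 13 lower, with a median of -0.71, and 8 were called lower after quantile normalization. Il6, an interleukin gene with a cAMP response element, had 4.52, 4.52 and 4.45 in CL cells, against 6.62, 6.59, 6.73 and 6.67 in WAT cells. The 7 values formed narrow bands far apart, and Il6 was 4.46-fold lower in CL cells (log2 difference -2.16 ± 0.14, adjusted p = 1.91e-06). The Il6 window, chr5:30012864-30013163 (plus strand), has the same motif at -135, on the other strand.
Il6: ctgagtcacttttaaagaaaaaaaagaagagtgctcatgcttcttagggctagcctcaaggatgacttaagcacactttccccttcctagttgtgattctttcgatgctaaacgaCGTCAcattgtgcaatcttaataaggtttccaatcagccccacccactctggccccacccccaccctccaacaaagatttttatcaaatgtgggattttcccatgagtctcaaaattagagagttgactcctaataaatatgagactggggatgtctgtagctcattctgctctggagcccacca
In this list 12 of the 19 genes with a window held the motif (63.2%), against 23.0% of all genes. Its genes were chosen as ones that cAMP or other stimuli induce, so this share describes the list and is no result about CL cells. The share also varied among lists not chosen for such induction. The motif was held by 11 of the 20 TCA cycle genes with a window and by 1 of the 18 collagens with a window. Ier3, Trib1 and Fosl2, an inhibitor of cell death, a pseudokinase and an AP-1 factor, had log2 differences of -1.21, -0.94 and -1.14 (adjusted p = 0.000357, 0.00084 and 0.00193), each without overlap. Nr4a1 and Nr4a3, nuclear receptors that respond to adrenergic stimuli, had log2 differences of -0.50 and -0.71 with overlapping arrays (adjusted p = 0.103 and 0.272). Crem, which encodes a cAMP-induced repressor, had -0.12 (adjusted p = 0.59). The dissociation of tissue also induces such genes. A list of 22 dissociation stress genes, which shares Ier3, Junb and others with this one, had 1 called higher and 10 lower (1 and 6 without CL 4), and its summed level was 12.49 to 12.88 in CL and 13.32 to 13.42 in WAT. Fos, a member of both lists, had 9.15, 9.06 and 8.70 in CL cells, against 8.92, 9.16, 8.98 and 9.06 in WAT cells, with overlap (adjusted p = 0.782).

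Lipolysis genes rose in part. Of 21 measured, 8 were called higher and 1 lower, with a median of 0.72, and without CL 4 the counts were 4 and 1. The genes of adipose triglyceride lipase and hormone-sensitive lipase were not among them. Pnpla2, the first of these, had 10.45, 10.42 and 10.69 in CL cells, against 10.07, 9.90, 10.35 and 8.87 in WAT cells (log2 difference 0.72 ± 0.27, adjusted p = 0.0585), and passed only without WAT 3 (0.0261). Lipe, the second, had 9.77, 9.72 and 10.13 in CL cells, against 9.73, 9.0, 9.73 and 7.72 in WAT cells, with overlap (adjusted p = 0.106). Plin5, which ties lipid droplets to mitochondria, had 6.32, 6.61 and 5.96 in CL cells, against 4.95, 4.84, 4.46 and 4.09 in WAT cells (log2 difference 1.71 ± 0.23, adjusted p = 0.000327). G0s2, an inhibitor of adipose triglyceride lipase, had 7.35, 7.38 and 7.99 in CL cells, against 6.37, 5.73, 6.27 and 5.79 in WAT cells. G0s2 was 2.89-fold higher (log2 difference 1.53 ± 0.23, adjusted p = 0.00058), while Abhd5, the activator of the same lipase, was not called (0.22 ± 0.24, adjusted p = 0.517). Mgll, which splits monoglycerides, was higher by 1.02 ± 0.30 (adjusted p = 0.0223), a call lost without CL 4 (0.0837). Abhd6 and Ddhd2, lipases of monoglycerides and of other lipids, were higher by 1.52 and 1.36 log2 units (adjusted p = 0.00164 and 0.00203).

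Among 18 lipid droplet proteins 6 were called higher and 1 lower, with a median of 0.39. Cidea and Plin5 led, and the others were less firm: the counts were 3 and 1 without CL 1, 4 and 0 without CL 3, 2 and 1 without CL 4, 3 and 1 without WAT 2, 4 and 0 after quantile normalization and 3 and 1 after median centring. Plin2, a coat protein of droplets in most cells, had 10.38, 10.40 and 10.13 in CL cells, against 9.79, 9.43, 9.73 and 10.18 in WAT cells. Here CL 4 fell below WAT 4, and the call (adjusted p = 0.0397) was lost under every omission of a CL array and without WAT 1, WAT 2 or WAT 3 (0.0532 to 0.113), and under both other scalings (0.211 and 0.0705). Cidec and Plin4, droplet proteins of white adipocytes, had log2 differences of 0.84 and 0.26 (adjusted p = 0.122 and 0.546).

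Genes that bring fatty acids into the cell and activate them moved by member. Of 21 measured, 6 were called higher and 1 lower (3 and 1 without CL 4), with a median of 0.43. Acsl5, an acyl-CoA synthetase of mitochondria and endoplasmic reticulum, had 7.06, 7.01 and 7.05 in CL cells, against 5.48, 5.66, 5.67 and 5.75 in WAT cells (log2 difference 1.40 ± 0.17, adjusted p = 0.000183). Acsl4, the synthetase that prefers arachidonic acid, ran the other way, with 4.83, 4.98 and 4.95 in CL cells, against 5.88, 5.61, 5.81 and 5.80 in WAT cells (log2 difference -0.86 ± 0.16, adjusted p = 0.00201). Neither gene showed any overlap between the groups. Lpl, lipoprotein lipase, had 10.62, 10.64 and 10.95 in CL cells, against 10.31, 9.84, 10.01 and 9.52 in WAT cells (log2 difference 0.82 ± 0.20, adjusted p = 0.0108; 0.0543 without CL 4). Cd36, a fatty acid receptor, and Slc27a1, a transport protein, had 0.57 and 0.88 (adjusted p = 0.0528 and 0.0972), and both passed without WAT 1 (0.0384 and 0.0445).

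Mitochondrial beta-oxidation supplies electrons to the respiratory chain. Of 22 genes of the carnitine shuttle and the oxidation spiral, 19 were called higher and 0 lower, with a median of 1.23, and 12 were called without CL 4. Slc25a20, the carrier that brings acylcarnitines into mitochondria, had 8.68, 8.61 and 8.91 in CL cells, against 6.76, 6.42, 6.59 and 5.97 in WAT cells. Acadvl, the dehydrogenase for very long chains, had 8.51, 8.40 and 9.03 in CL cells, against 7.30, 6.99, 7.22 and 6.42 in WAT cells (log2 difference 1.66 ± 0.23, adjusted p = 0.000391). Cpt2, the inner carnitine palmitoyltransferase, had 8.99, 9.29 and 9.55 in CL cells, against 8.34, 7.56, 8.46 and 6.69 in WAT cells (log2 difference 1.51 ± 0.35, adjusted p = 0.00716). These 3 genes had no overlap between the groups. Cpt1a, the liver form of the outer transferase that controls entry, differed from the rest of the path. It had 6.74, 6.85 and 6.08 in CL cells, against 6.50, 7.26, 6.94 and 7.66 in WAT cells, with overlap (log2 difference -0.53 ± 0.27, adjusted p = 0.153).

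Peroxisomes shorten very long fatty acids before mitochondria take them on. Of 21 genes of peroxisomal oxidation, 12 were called higher and 0 lower, with a median of 0.62, but 6 without CL 4, 7 without WAT 2 and 6 without WAT 4. Ehhadh, the bifunctional enzyme of that path, had 6.55, 6.75 and 6.09 in CL cells, against 4.90, 4.28, 4.96 and 3.57 in WAT cells (log2 difference 2.04 ± 0.35, adjusted p = 0.00144). Acaa1b, its thiolase, had 4.40, 4.70 and 5.47 in CL cells, against 3.33, 3.06, 3.44 and 3.14 in WAT cells (log2 difference 1.61 ± 0.31, adjusted p = 0.00244). Abcd3, which imports acyl-CoA into peroxisomes, Ephx2, an epoxide hydrolase, and Hsd17b4, the other bifunctional enzyme, were higher by 1.44, 1.68 and 1.26 log2 units. None of these genes had overlapping arrays.

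Adipocytes also make fatty acids from glucose. Of 24 genes of de novo lipogenesis, 4 were called higher and 2 lower, with a median of 0.57, and the counts were 2 and 1 without CL 1 or WAT 4, 1 and 1 without CL 4, 7 and 1 without WAT 1, 5 and 1 without WAT 3, and 3 and 1 without CL 3 or WAT 2. With all arrays the shares were 16.7% higher and 8.33% lower, near the 15.2% and 9.97% of all probe sets. The core enzymes overlapped between the groups. Fasn, fatty acid synthase, had 11.26, 11.28 and 11.94 in CL cells, against 11.63, 10.97, 11.52 and 9.88 in WAT cells (adjusted p = 0.264). Acly, ATP citrate lyase, had 9.30, 9.18 and 10.59 in CL cells, against 10.08, 9.02, 9.87 and 8.45 in WAT cells (adjusted p = 0.522). The values thus spread widely within each group, with CL 4 the highest CL array and WAT 4 the lowest WAT array in both genes. Elovl6, Mlxipl and Srebf1, which encode an elongase and 2 transcription factors of lipogenesis, had differences of 1.09, 1.12 and 0.53 and were not called (adjusted p = 0.145, 0.0914 and 0.282). Acacb, the carboxylase form at mitochondria, had 7.74, 7.71 and 8.88 in CL cells, against 7.16, 6.31, 7.10 and 5.14 in WAT cells (log2 difference 1.68 ± 0.44, adjusted p = 0.0134; 0.0774 without CL 4). Insig1, which retains sterol regulators in the endoplasmic reticulum, was 2.58-fold higher (1.37 ± 0.23, adjusted p = 0.00118). Fads1, a desaturase of polyunsaturated fatty acids, had 6.43, 6.47 and 6.72 in CL cells, against 7.92, 8.05, 7.95 and 7.80 in WAT cells, 2.62-fold lower in CL cells (log2 difference -1.39 ± 0.22, adjusted p = 0.000955).

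Of 21 genes of triglyceride synthesis and glyceroneogenesis, 8 were called higher and 1 lower, with a median of 0.91, with 13 and 1 called without WAT 1 and 5 and 1 without CL 4. Pck1, which makes glycerol phosphate from pyruvate in fat, had 10.10, 10.15 and 10.30 in CL cells, against 9.48, 9.0, 9.43 and 7.45 in WAT cells (log2 difference 1.34 ± 0.37, adjusted p = 0.0171; 0.0617 without CL 4). Agpat2, an acyltransferase of adipocytes, had 10.10, 10.00 and 10.53 in CL cells, against 9.39, 8.71, 9.45 and 7.56 in WAT cells (1.43 ± 0.33, adjusted p = 0.00764). Gpd2, the mitochondrial glycerol phosphate dehydrogenase, was higher by 1.33 ± 0.28 (adjusted p = 0.00471), with no overlap. Gpd1, its cytosolic partner, had 10.57, 10.45 and 11.37 in CL cells, against 10.26, 9.34, 10.15 and 7.80 in WAT cells. Its call (1.41 ± 0.43, adjusted p = 0.028) was lost without CL 1 (0.0523), CL 4 (0.128) or WAT 2 (0.0542) and after quantile normalization (0.0549). Dgat1 and Dgat2, which add the last acyl chain, had 0.92 and 1.19 (adjusted p = 0.0977 and 0.0522), and both passed without WAT 1 (0.0423 and 0.0258), Dgat2 also without WAT 3 (0.0268).

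Glucose is taken up and broken down to pyruvate and lactate. Of 26 genes of glucose uptake, glycolysis and lactate, 7 were called higher and 4 lower (6 and 2 without CL 1), with a median of 0.53. Pdk4, a kinase that shuts pyruvate dehydrogenase and so spares glucose, had 8.99, 8.92 and 9.50 in CL cells, against 7.60, 7.25, 7.54 and 5.59 in WAT cells (log2 difference 2.14 ± 0.37, adjusted p = 0.0015). Pdk2, a second such kinase, had 7.47, 7.50 and 8.09 in CL cells, against 6.40, 5.89, 6.57 and 5.62 in WAT cells (1.57 ± 0.26, adjusted p = 0.00126). Ldhb, the lactate dehydrogenase subunit of oxidative tissue, had 7.46, 7.62 and 7.74 in CL cells, against 6.39, 6.28, 6.24 and 5.79 in WAT cells (1.43 ± 0.17, adjusted p = 0.000163). All 3 had no overlap between the groups. Slc2a1, the basal glucose transporter, was lower, with 6.27, 6.62 and 6.32 in CL cells, against 7.58, 7.42, 7.61 and 8.26 in WAT cells (-1.31 ± 0.20, adjusted p = 0.000749). Slc2a4, the insulin-regulated transporter, had 6.87, 6.71 and 8.25 in CL cells, against 7.03, 6.09, 6.75 and 4.55 in WAT cells, with overlap (adjusted p = 0.146). Hk2, a hexokinase, fell by 0.62 ± 0.20 on the log2 scale (adjusted p = 0.0316), but not without CL 1 (0.125), CL 3 (0.073), WAT 1 (0.0801), WAT 3 (0.0532) or WAT 4 (0.0586), nor after quantile normalization (0.124).

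In glycogen metabolism 6 of 20 genes were called higher and 1 lower, with a median of 0.28. Ppp1r3b, which brings a phosphatase to glycogen and activates its synthesis, had 6.36, 6.19 and 6.67 in CL cells, against 4.12, 3.67, 4.21 and 3.61 in WAT cells (log2 difference 2.50 ± 0.30, adjusted p = 0.000163). Gys2, the liver form of glycogen synthase, had 8.18, 7.95 and 8.74 in CL cells, against 6.55, 5.91, 6.60 and 4.13 in WAT cells (2.49 ± 0.44, adjusted p = 0.00166). These differences were 5.67-fold and 5.63-fold, without overlap. Ppp1r3d, a related targeting subunit, was higher by 0.95 ± 0.17 (adjusted p = 0.00147). Gys1 and Pygl, the muscle synthase and a phosphorylase that degrades glycogen, overlapped between groups (0.73 and 0.51, adjusted p = 0.109 and 0.276), and Gys1 passed without WAT 3 (0.0475). Pgm2, a phosphopentomutase with phosphoglucomutase activity, fell by 1.04 ± 0.24 on the log2 scale (adjusted p = 0.00669).

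**Figure D3:**
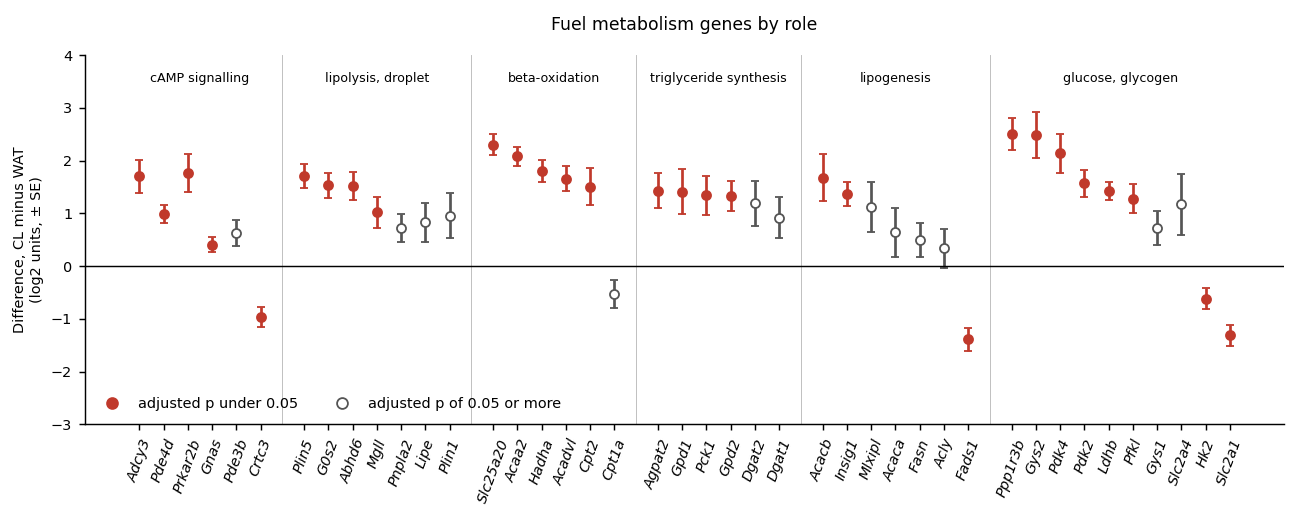
Difference between CL and WAT (y axis, log2 units, points with ± SE of the limma fit; 3 CL and 4 WAT arrays) for genes grouped by role, filled where the adjusted p was under 0.05. Carriers and enzymes of beta-oxidation such as Slc25a20 (2.30) and Acadvl (1.66) and the glycogen genes Ppp1r3b (2.50) and Gys2 (2.49) lie high, and Slc2a1 (-1.31) and Fads1 (-1.39) lie below 0.

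The TCA cycle, which burns acetyl-CoA, had 19 of 22 genes called higher and 0 lower, with a median of 1.09. Idh3a, a subunit of isocitrate dehydrogenase, had 8.70, 8.78 and 9.03 in CL cells, against 7.33, 6.99, 7.32 and 5.85 in WAT cells (log2 difference 1.96 ± 0.29, adjusted p = 0.000525). Cs, citrate synthase, had 8.69, 8.77 and 9.10 in CL cells, against 8.19, 7.79, 8.15 and 7.23 in WAT cells (1.01 ± 0.21, adjusted p = 0.00459). The smaller gap of citrate synthase still left no overlap. Sucla2, of the succinyl-CoA step, and Mdh2, malate dehydrogenase, were higher by 1.70 ± 0.28 and 1.19 ± 0.20 (adjusted p = 0.00116 and 0.00125).

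Of the respiratory chain, all 3 lists had most members called higher. Mature adipocyte markers had a median of 0.82 in the same arrays, and the part of adipocyte RNA in the mitochondrial lists was not tested. For complex I, which takes electrons from NADH, 30 of 34 genes were called higher and 0 lower, with a median of 0.88, and 17 without CL 4. Ndufab1, an acyl carrier protein of the complex, had 7.50, 7.97 and 8.14 in CL cells, against 6.27, 6.32, 6.48 and 5.65 in WAT cells (log2 difference 1.69 ± 0.21, adjusted p = 0.000231). Ndufv1 and Ndufb8, subunits of the NADH-binding part and of the membrane arm, were higher by 1.27 and 1.13 (adjusted p = 0.00108 and 0.00132). Ndufs1, the largest subunit, was higher by 1.04 ± 0.27 (adjusted p = 0.0137; 0.072 without CL 4). In complexes II and III 13 of 15 were called higher and 0 lower (8 without CL 4), with a median of 1.01. Uqcrc1, a core protein of complex III, had 9.82, 9.90 and 10.15 in CL cells, against 9.11, 8.64, 9.20 and 8.49 in WAT cells (1.10 ± 0.19, adjusted p = 0.00132).

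Cytochrome c oxidase, the last complex, had 16 of 27 genes called higher and 0 lower, with a median of 0.61, and 6 without CL 4 or 9 without WAT 4. Cox7a2, the form of subunit 7a in most tissues, had 8.98, 8.98 and 9.25 in CL cells, against 8.66, 8.45, 8.72 and 8.29 in WAT cells, a log2 difference of 0.54 ± 0.16 beside 4.26 ± 0.31 for Cox7a1. Cox8a, the ubiquitous form of subunit 8, had 7.87, 7.96 and 8.26 in CL cells, against 7.99, 7.60, 8.07 and 7.58 in WAT cells, a difference of 0.22 ± 0.18 beside 2.37 ± 0.33 for Cox8b. Cox8a overlapped between the groups (adjusted p = 0.373). Cox6a2, the heart and muscle form of subunit 6a, stayed low and was not called (0.51 ± 0.25, adjusted p = 0.137). The differences between the forms were not themselves tested. The calls of Cox7a2 (adjusted p = 0.0249), Cox6a1 (0.013) and Cox4i1 (0.0192), all ubiquitous forms, were lost without CL 4 (0.107, 0.0662 and 0.104), and that of Cox7a2 also without WAT 2 (0.0591) or WAT 4 (0.0735) and that of Cox4i1 without WAT 4 (0.0581). Cox17, the copper chaperone of the complex, was higher by 1.46 ± 0.17 (adjusted p = 0.000143).

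ATP synthase, which UCP1 bypasses, had 8 of 12 genes called higher and 0 lower, with a median of 0.79. Atp5b, its catalytic beta subunit, had 11.30, 11.39 and 11.49 in CL cells, against 10.92, 10.62, 10.93 and 10.04 in WAT cells (log2 difference 0.77 ± 0.19, adjusted p = 0.0102). Atp5k and Atp5o, small subunits, were higher by 1.35 and 1.27 (adjusted p = 0.00344 and 0.00359). Coenzyme Q carries electrons between the complexes, and 8 of 12 genes of its synthesis were called higher and 0 lower (5 without CL 4), with a median of 0.80. Coq8a, a regulator of that synthesis, had 7.07, 6.92 and 8.05 in CL cells, against 5.65, 5.17, 5.70 and 4.23 in WAT cells, 4.47-fold higher (2.16 ± 0.36, adjusted p = 0.00114). Of 76 mitochondrial ribosomal proteins, 35 were called higher and 0 lower, with a median of 0.51, and 15 without CL 4 and 23 without WAT 2 or WAT 4. Mrpl12, which also binds the mitochondrial RNA polymerase, was higher by 1.38 ± 0.20 (adjusted p = 0.000537). Cytosolic ribosomal proteins had 8 of 35 called higher, 2 lower and a median of -0.05, and 5 higher without CL 1 or WAT 3.

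Mitochondrial stress and antioxidant genes had 9 of 22 called higher and 2 lower (7 and 0 without CL 4, 14 and 1 after quantile normalization), with a median of 0.50. Ucp3, a relative of UCP1 found in muscle and brown fat, had 4.79, 4.72 and 4.97 in CL cells, against 3.24, 2.92, 2.80 and 2.39 in WAT cells (log2 difference 1.99 ± 0.26, adjusted p = 0.000258). Hspa9 and Txn2, the mitochondrial chaperone and thioredoxin, were higher by 1.17 and 0.87 (adjusted p = 0.000816 and 0.00138). Sod2, which removes superoxide, had 0.51 ± 0.19 (adjusted p = 0.0668), and passed without WAT 1 (0.0457) or WAT 3 (0.0498) and after quantile normalization (0.0405). Branched-chain amino acids are a further fuel of brown fat, and 8 of 23 genes of their catabolism were called higher and 0 lower, with a median of 0.56. That count was 5 without CL 3, 3 without WAT 2 or WAT 4 and 0 without CL 4 in limma. Bckdha, of the dehydrogenase that commits them, had 8.63, 8.63 and 9.08 in CL cells, against 8.29, 7.62, 8.43 and 6.96 in WAT cells, with an adjusted p = 0.0229 that became 0.10 without CL 4, 0.056 without WAT 2 and 0.0509 without WAT 4. Bcat2 and Slc25a44, the transaminase and the mitochondrial carrier, had 0.45 and 0.54 (adjusted p = 0.224 and 0.0649), and Slc25a44 passed without CL 1 (0.05) or WAT 1 (0.0487) and after quantile normalization (0.0255).

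Of 22 regulators of mitochondrial biogenesis measured, 8 were called higher and 4 lower (4 and 2 without CL 4, 8 and 2 without CL 1), with a median of 0.16. Ppara, a nuclear receptor of fatty acid oxidation, had 5.52, 6.02 and 6.07 in CL cells, against 3.98, 4.05, 4.16 and 2.98 in WAT cells (log2 difference 2.08 ± 0.32, adjusted p = 0.000747). Ppargc1b, the relative of PGC-1alpha, had 5.57, 5.51 and 5.83 in CL cells, against 4.15, 4.36, 4.55 and 3.87 in WAT cells (1.40 ± 0.19, adjusted p = 0.000357). Pprc1, the third member of that coactivator family, ran the other way, with 4.77, 5.18 and 4.89 in CL cells, against 5.97, 6.25, 6.09 and 6.96 in WAT cells (-1.37 ± 0.23, adjusted p = 0.00111). Each of these 3 genes separated the groups. Esrrg, an oestrogen-related receptor of oxidative tissue, was higher by 0.84 ± 0.17 (adjusted p = 0.00359). Esrra, its relative, and Tfam, the packaging factor of mitochondrial DNA, had 0.34 and -0.17 with overlap (adjusted p = 0.268 and 0.6).

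Of 31 transcription factors and other regulators of brown and beige fate measured, 6 were called higher and 7 lower (3 and 5 without CL 4, 5 and 4 after quantile normalization), with a median of 0.00. The lowest value was that of Plac8 (-3.26), which is also named below among the largest decreases, beside leukocyte genes. Prdm16, the fate regulator of brown and beige fat, had 5.26, 5.02 and 4.95 in CL cells, against 4.93, 4.84, 5.15 and 4.55 in WAT cells, with overlap (log2 difference 0.21 ± 0.19, adjusted p = 0.436). Ebf2, which opens brown fat chromatin, had 6.09, 6.30 and 6.23 in CL cells, against 6.02, 6.88, 6.26 and 6.91 in WAT cells (-0.31 ± 0.23, adjusted p = 0.331). Cebpb and Zfp516, further factors of that fate, had 0.00 and 0.08 (adjusted p = 0.997 and 0.852). Foxc2, a forkhead factor that sensitises fat to cAMP, was low but higher in CL cells, with 3.72, 3.93 and 4.13, against 3.20, 3.01, 2.96 and 2.99 in WAT cells (0.89 ± 0.17, adjusted p = 0.00222). Tle3, a corepressor that opposes Prdm16, had 7.50, 7.58 and 7.21 in CL cells, against 8.09, 8.43, 8.34 and 8.54 in WAT cells (-0.92 ± 0.18, adjusted p = 0.00344). Cebpd, an early adipogenic factor, had 5.23, 5.36 and 5.60 in CL cells, against 6.43, 6.64, 6.52 and 6.90 in WAT cells (-1.23 ± 0.20, adjusted p = 0.00102). Irf4, a factor of cAMP-driven thermogenesis that immune cells also use, fell by 0.87 ± 0.22 on the log2 scale (adjusted p = 0.012), but not without CL 1 (0.054) or after quantile normalization (0.0735).

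Genes used as markers of beige cells gave no common direction. Of 18 measured, 4 were called higher and 4 lower, with a median of 0.40, and the counts were 1 and 3 without CL 4 3 and 2 without CL 1 or WAT 4, 4 and 2 without WAT 1 and 5 and 2 without WAT 3. Tnfrsf9, known as CD137, had 4.20, 4.04 and 3.49 in CL cells, against 3.92, 3.71, 3.29 and 4.02 in WAT cells. Tmem26, a surface marker, had 4.38, 4.35 and 3.66 in CL cells, against 4.11, 4.27, 4.11 and 6.14 in WAT cells. Both overlapped (adjusted p = 0.551 and 0.353), as did Cited1 (0.703), and WAT 4 stood apart for Tmem26. Tbx1 passed with all arrays (log2 difference 0.52 ± 0.18, adjusted p = 0.0443) but not without any 1 of CL 1, CL 3, CL 4, WAT 1, WAT 2 or WAT 4 (0.0632 to 0.148), nor under either other scaling (0.0752 and 0.0779). Kcnk3, a potassium channel, had 7.08, 7.02 and 8.43 in CL cells, against 6.30, 5.77, 6.34 and 4.69 in WAT cells (1.74 ± 0.40, adjusted p = 0.00692). P2rx5, a purinergic receptor, was higher by 1.59 ± 0.40 (adjusted p = 0.0111; 0.0678 without CL 4). Epsti1 and Sp100, interferon-responsive members of the list, had log2 differences of -1.74 and -1.26 (adjusted p = 0.00195 and 0.00664).

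White-selective genes and adipokines mostly did not pass. Of 21 measured, 1 was called higher and 5 lower, with a median of 0.23, and the counts were 0 and 2 without CL 1 and 0 and 3 without CL 3 or CL 4. Lep, leptin, had 7.34, 7.40 and 7.56 in CL cells, against 7.29, 6.62, 7.17 and 4.84 in WAT cells (log2 difference 0.95 ± 0.45, adjusted p = 0.13). Retn, resistin, had 10.40, 10.22 and 11.09 in CL cells, against 10.68, 10.15, 10.61 and 8.25 in WAT cells, with overlap (adjusted p = 0.282). Dpt, a matrix protein of white fat that fibroblasts also make, fell by 0.85 ± 0.15 (adjusted p = 0.0018). Secreted factors of thermogenic fat had 2 of 27 called higher and 6 lower (1 and 4 without CL 4), with a median of -0.09. S100b, which promotes sympathetic innervation of thermogenic fat, had 4.59, 4.54 and 5.16 in CL cells, against 2.80, 3.30, 2.71 and 2.89 in WAT cells. This was 3.58-fold higher in CL cells (1.84 ± 0.35, adjusted p = 0.00264), without overlap. Metrnl, a secreted factor that macrophages also express, had 4.03, 4.85 and 3.75 in CL cells, against 5.49, 6.19, 5.52 and 7.12 in WAT cells (-1.87 ± 0.36, adjusted p = 0.00279), with WAT 4 the highest array. Fgf21, Bmp8b and Vegfa, a hormone, a growth factor of brown fat and the main angiogenic factor, overlapped between groups (0.55, 0.31 and -0.07; adjusted p = 0.175, 0.499 and 0.767). Nrg4, a neuregulin of brown fat, was called with all arrays (1.20 ± 0.42, adjusted p = 0.0461) but not without CL 1 (0.0717), CL 3 (0.0961), CL 4 (0.144), WAT 2 (0.0992) or WAT 4 (0.112), nor under either other scaling (0.0528 and 0.0586).

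Cycles that burn ATP without UCP1 were also looked at. Of 19 genes of creatine and calcium cycling, 3 were called higher (15.8%) and 1 lower (5.26%), with a median of 0.15. The share called higher was near the 15.2% of all probe sets, of which 9.97% were lower. Alpl, the alkaline phosphatase that can split phosphocreatine, had 4.67, 5.30 and 5.11 in CL cells, against 4.06, 3.68, 4.21 and 4.07 in WAT cells (log2 difference 1.02 ± 0.18, adjusted p = 0.00169). Slc6a8, the creatine transporter, had 5.13, 4.71 and 4.55 in CL cells, against 5.36, 6.18, 5.49 and 6.63 in WAT cells (-1.12 ± 0.26, adjusted p = 0.00754). Ckb and Gatm, a creatine kinase and a creatine-making enzyme, had -0.12 and -0.13 (adjusted p = 0.717 and 0.728), and Ckmt1 and Ckmt2, the mitochondrial kinases, lay below the median of each CL array. Atp2a2, the calcium pump of the endoplasmic reticulum, had 8.53, 8.42 and 8.41 in CL cells, against 8.44, 8.34, 8.30 and 8.93 in WAT cells, with overlap (-0.05 ± 0.26, adjusted p = 0.903).

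Interferon-stimulated genes, which many cell types switch on in answer to viruses and interferon, were lower in CL cells. Of 26 measured, 0 were called higher and 21 lower, with a median of -1.07, and 13 were lower without CL 4. Ifit1, which binds viral RNA, had 3.57, 3.70 and 3.17 in CL cells, against 6.05, 4.99, 6.55 and 5.50 in WAT cells. Isg15, a ubiquitin-like protein, had 4.82, 4.94 and 4.35 in CL cells, against 5.97, 5.53, 6.36 and 5.83 in WAT cells. For both, every CL array lay below every WAT array (log2 difference -2.29 ± 0.42, adjusted p = 0.00198, and -1.22 ± 0.37, adjusted p = 0.0266). The call of Isg15 was lost without CL 1 (0.0565), CL 4 (0.108) or WAT 3 (0.0648) and after quantile normalization (0.116). Their windows are shown because many genes of the list hold the same promoter motif. Capitals mark 2 copies of GAAA with any 2 bases between them, or the reverse complement, the core of the interferon-stimulated response element. The Ifit1 window, chr19:34640639-34640938 (plus strand), has 2 matches, at -104 and -85. The Isg15 window, chr4:156200769-156201068 (minus strand), has 3 that overlap each other, at -78, -72 and -66.
Ifit1: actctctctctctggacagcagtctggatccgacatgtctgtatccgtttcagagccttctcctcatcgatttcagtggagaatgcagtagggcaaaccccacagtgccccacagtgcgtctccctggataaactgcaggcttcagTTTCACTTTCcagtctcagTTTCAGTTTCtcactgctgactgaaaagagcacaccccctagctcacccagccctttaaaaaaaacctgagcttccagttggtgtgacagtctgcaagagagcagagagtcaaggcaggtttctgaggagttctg
Isg15: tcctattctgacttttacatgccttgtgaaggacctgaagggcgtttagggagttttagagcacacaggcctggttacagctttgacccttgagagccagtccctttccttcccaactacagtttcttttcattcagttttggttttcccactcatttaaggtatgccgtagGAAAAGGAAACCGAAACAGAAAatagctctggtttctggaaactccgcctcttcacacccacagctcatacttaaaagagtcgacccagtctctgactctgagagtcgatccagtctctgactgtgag
The motif was found in 12 of the 19 interferon-stimulated genes with a window (63.2%), against 3.99% of all 27025 genes. The list was chosen as genes that interferon induces, so this share describes the list and is no result about CL cells. Irf7, a factor that amplifies the response, had 5.43, 5.91 and 5.30 in CL cells, against 7.49, 6.88, 8.17 and 7.95 in WAT cells (-2.08 ± 0.31, adjusted p = 0.000577). Oasl1, a translation inhibitor of the family of oligoadenylate synthases, had 3.47, 4.19 and 3.62 in CL cells, against 7.33, 6.02, 7.59 and 6.44 in WAT cells (-3.08 ± 0.52, adjusted p = 0.0013). Zbp1 and Usp18, a nucleic acid sensor and a brake on interferon signalling, had log2 differences of -2.33 and -2.20 (adjusted p = 0.000292 and 0.000655). Macrophage markers were lower in the same arrays, and their part in this list was not tested.

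Macrophages are the leukocytes that engulf debris, and adipose tissue holds many. Of 23 macrophage markers, 20 were called lower and 0 higher, with a median of -2.19. Folr2, a folate receptor of resident macrophages, had 6.60, 7.02 and 6.51 in CL cells, against 9.04, 9.19, 9.32 and 9.62 in WAT cells (log2 difference -2.58 ± 0.24, adjusted p = 1.91e-05). Mrc1, the mannose receptor, had 5.59, 5.68 and 5.41 in CL cells, against 7.87, 8.51, 7.96 and 8.93 in WAT cells (-2.76 ± 0.36, adjusted p = 0.000278). Neither gene overlapped between the groups. Lilrb4a, an inhibitory receptor of leukocytes, had 5.78, 6.35 and 4.70 in CL cells, against 7.77, 8.83, 8.13 and 10.24 in WAT cells (-3.13 ± 0.57, adjusted p = 0.00188). Ifi204, an interferon-inducible DNA sensor, had 4.56, 4.23 and 3.03 in CL cells, against 6.48, 7.55, 6.74 and 7.52 in WAT cells (-3.13 ± 0.50, adjusted p = 0.000903). Siglec1 was the 1 macrophage marker among the 12 largest decreases. Lilrb4a, Ifi204, Ptafr, Cd209g, Cd209f, Cd209d, Plac8, Ccl3 and Ccl8 were also among them and are drawn with it in the plot of the named genes. The 3 CD209 genes are relatives of each other.

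Chemokines and cytokines, which draw in leukocytes, had 22 of 32 called lower and 0 higher, with a median of -1.51. Ccl2, which attracts monocytes, had 6.39, 6.42 and 6.07 in CL cells, against 8.49, 8.34, 8.57 and 9.02 in WAT cells (log2 difference -2.31 ± 0.24, adjusted p = 4.69e-05). Tnf, a cytokine that blocks insulin action in fat, had 5.12, 5.35 and 4.66 in CL cells, against 6.28, 6.70, 7.04 and 8.41 in WAT cells (-2.06 ± 0.37, adjusted p = 0.0018). Il1b, a cytokine of activated macrophages, had 4.81, 5.0 and 3.86 in CL cells, against 4.59, 5.86, 4.79 and 8.34 in WAT cells, with overlap (adjusted p = 0.146) and WAT 4 far above the rest. Complement genes had 14 of 20 lower and 0 higher, with a median of -1.57. C1qa, which starts the classical path and is made by macrophages, had 6.68, 6.83 and 6.53 in CL cells, against 8.96, 8.97, 9.24 and 9.45 in WAT cells (-2.48 ± 0.26, adjusted p = 4.89e-05). C6, of the membrane attack complex, was 5.93-fold lower in CL cells (-2.57 ± 0.28, adjusted p = 6.4e-05).

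Lysosome genes had 15 of 31 called lower and 0 higher, with a median of -0.43. Ctsc, a cathepsin, had 5.94, 5.62 and 6.04 in CL cells, against 7.49, 8.15, 7.52 and 8.41 in WAT cells (log2 difference -2.03 ± 0.30, adjusted p = 0.00058). Lamp1, a membrane protein of lysosomes in all cells, had 8.04, 8.04 and 8.47 in CL cells, against 8.45, 8.52, 8.31 and 8.61 in WAT cells, with overlap (-0.29 ± 0.19, adjusted p = 0.276). Lipa, the acid lipase, had -0.11 and was not called. Ctss, a cathepsin of antigen-presenting cells, fell by 1.87 ± 0.48 (adjusted p = 0.0122; 0.0731 without CL 4).

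MHC class II genes present antigen. Of 11 measured, 1 was called higher and 0 lower, with a median of -0.36. H2-Aa had 8.68, 8.78 and 7.45 in CL cells, against 8.06, 9.63, 8.21 and 10.54 in WAT cells. Cd74, the invariant chain that guides these molecules, had 9.15, 9.30 and 8.61 in CL cells, against 8.59, 10.33, 8.95 and 10.97 in WAT cells. The groups overlapped for both (adjusted p = 0.339 and 0.405), and WAT 1 and WAT 3 lay near the CL arrays while WAT 2 and WAT 4 lay above them. H2-Eb2, the 1 called gene, was low throughout, and its call (0.56 ± 0.19, adjusted p = 0.0424) was lost without CL 1, CL 3, CL 4, WAT 1, WAT 3 or WAT 4 (0.058 to 0.131) and under both other scalings (0.107 and 0.0722). H2-DMa, a chaperone of peptide loading, was not called (-1.07 ± 0.44, adjusted p = 0.0869), but was without WAT 1 (0.0248) or WAT 3 (0.0499). Markers of B cells had 4 of 12 called higher and 1 lower (1 and 1 without CL 3, 2 and 1 without CL 1). Their summed log2 level was not higher in CL cells, with 7.20 to 8.01 in CL arrays and 7.58 to 8.64 in WAT arrays. Cd22, a brake on B cell receptors, was low on all arrays. It had 3.54, 4.13 and 3.57 in CL cells, against 2.65, 2.49, 2.25 and 2.94 in WAT cells (1.16 ± 0.20, adjusted p = 0.00147). Cd3e, of the T cell receptor complex, had 5.44, 5.45 and 4.85 in CL cells, against 3.65, 3.92, 3.73 and 4.91 in WAT cells (1.19 ± 0.26, adjusted p = 0.00514). Here CL 4 and WAT 4 overlapped. T and NK cell markers had 2 of 22 higher and 1 lower (1 and 1 without CL 3).

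Most stromal progenitor markers and matrix genes were called lower, but few collagens. Of 20 stromal progenitor markers, 13 were called lower and 0 higher, with a median of -1.38. Dpp4, a surface protein of early progenitors, had 3.35, 3.68 and 3.58 in CL cells, against 5.67, 7.37, 5.94 and 6.90 in WAT cells (log2 difference -2.93 ± 0.44, adjusted p = 0.000688). Pi16, which marks universal fibroblasts, had 5.37, 5.94 and 4.90 in CL cells, against 7.35, 8.75, 7.53 and 9.02 in WAT cells (-2.76 ± 0.43, adjusted p = 0.000853). WAT 2 and WAT 4 were the higher WAT arrays for both. Pdgfra, a receptor of most fat fibroblasts, had 5.43, 6.10 and 4.25 in CL cells, against 5.37, 6.95, 5.53 and 7.55 in WAT cells, with overlap (-1.09 ± 0.52, adjusted p = 0.133). Matrix genes had 21 of 39 called lower and 0 higher, with a median of -1.43, and 11 without CL 4. Fbln1, a fibulin, had 4.01, 4.49 and 3.55 in CL cells, against 6.21, 7.10, 6.44 and 7.36 in WAT cells (-2.76 ± 0.26, adjusted p = 2.46e-05). Sfrp4, a secreted modulator of Wnt signals, had 3.63, 4.14 and 2.99 in CL cells, against 6.03, 7.77, 6.37 and 7.47 in WAT cells. Sparc, a matrix protein that adipocytes and endothelium also make, had 11.23, 11.22 and 11.20 in CL cells, against 11.12, 11.13, 11.19 and 11.42 in WAT cells, a difference of 0.00 ± 0.14 (adjusted p = 0.994). Fn1, fibronectin, fell by 2.17 ± 0.64 (adjusted p = 0.0241), but not without CL 1 (0.0549), CL 4 (0.10) or WAT 4 (0.0663). Collagens had 4 of 23 lower (17.4%) and 1 higher (1 lower without CL 1, CL 4 or WAT 4). The lower share was 9.97% over all probe sets and 20.9% among those with a mean of 4 or more. Col4a1, of basement membranes, had -0.11 (adjusted p = 0.77).

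Endoplasmic reticulum stress genes had 9 of 26 called lower and 0 higher, with a median of -0.55, and the lower count was 4 without CL 4, 5 without WAT 4 and 17 without RS 3 or RS 4. Ern1, the sensor IRE1, had 5.46, 5.38 and 5.15 in CL cells, against 6.34, 6.54, 6.25 and 6.99 in WAT cells (log2 difference -1.20 ± 0.20, adjusted p = 0.00129). Xbp1, the factor that it activates, fell by 0.80 ± 0.17 (adjusted p = 0.00462), and Ddit3, known as CHOP, had 0.04 (adjusted p = 0.86). Hspa5, the chaperone BiP, fell by 0.67 ± 0.21 (adjusted p = 0.0304), a call lost without CL 1 (0.0517), CL 3 (0.0628), CL 4 (0.112) or WAT 4 (0.0886).

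Vessel cells were looked at next. limma called 0 of 21 endothelial markers at the adjusted threshold, and their median was 0.25. Pecam1, a junction protein, had 9.08, 9.61 and 8.51 in CL cells, against 8.60, 9.32, 9.08 and 7.52 in WAT cells, with overlap (adjusted p = 0.60). Of 19 mammary and surface epithelial markers, 7 were called lower and 0 higher, with a median of -0.16, but 1 higher and 3 lower without CL 1, and 2 lower without CL 3, 4 without WAT 1 and 3 without WAT 3. Krt19, a keratin of simple epithelia, had 3.17, 2.73 and 3.43 in CL cells, against 6.75, 4.65, 7.02 and 4.02 in WAT cells (log2 difference -2.50 ± 0.58, adjusted p = 0.00747). The high values were those of WAT 1 and WAT 3. Epcam, the defining surface protein, and Krt14, a basal keratin, lay below the median of each CL array, a check that did not cover the WAT arrays. Krt14 was itself called lower in CL cells with all arrays. That call was lost without CL 1 (adjusted p = 0.0876), CL 3 (0.0895), CL 4 (0.0644), WAT 1 (0.0841) or WAT 3 (0.089). Erythroid genes ran the other way, and 2 of 7 were called higher and 0 lower (1 without any 1 CL or WAT array). Alas2, the red cell form of the first haem enzyme, had 5.80, 6.02 and 6.02 in CL cells, against 4.35, 4.04, 4.50 and 3.17 in WAT cells (1.93 ± 0.51, adjusted p = 0.0139). Hbb-b1, a beta globin, had 9.83, 10.23 and 9.88 in CL cells, against 8.36, 8.45, 8.57 and 7.76 in WAT cells, and its call (adjusted p = 0.0401) was lost without any 1 of the 7 arrays (0.0538 to 0.104) and after quantile normalization (0.0603).

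**Figure D4:**
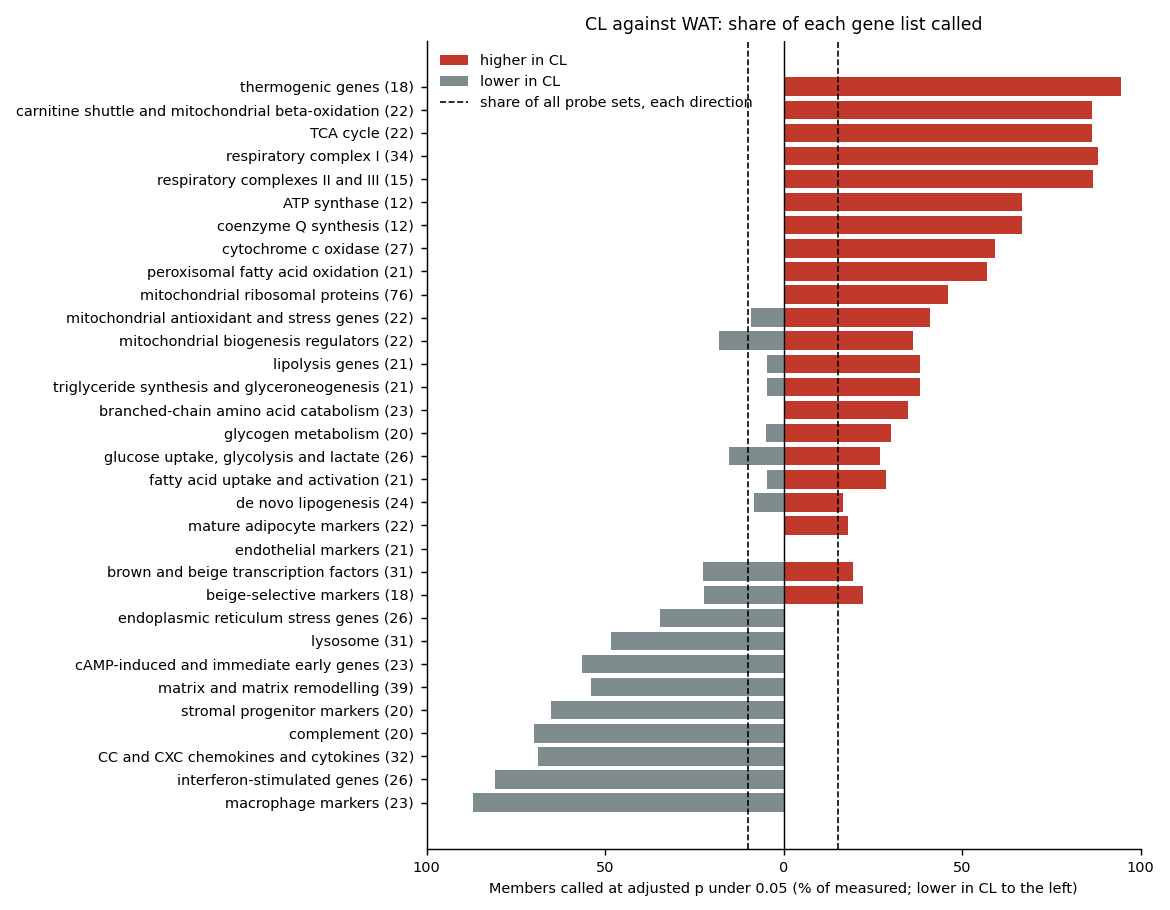
Share of the measured members of each list (number in brackets) that was called higher in CL cells (right) or lower (left), in percent. Dashed lines mark the shares over all probe sets, 15.2% higher and 9.97% lower. Among probe sets with a mean of 4 or more the shares were 8.2% and 20.9%, which the lines do not show. Oxidation, respiration and thermogenic lists reach far right of their line, and macrophage, complement, chemokine and interferon lists far left of theirs.

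CL cells were next set against the UCP1-positive cells of the same depot after rosiglitazone, a comparison in which gate and depot match and the drug differs, as they do against RS cells. In all, 724 probe sets were called (2.87%), 416 higher (1.65%) and 308 lower (1.22%) in CL cells. These calls rest on few arrays. Leaving out RG 3 gave 28 calls, RG 2 32, CL 1 199, CL 4 229, RG 4 295 and CL 3 347. The fit takes its spread from all 15 arrays, and leaving out an array of another group gave 410 (WAT 2) to 960 (RS 3 or RS 4), with 472 without WAT 1. Of the 18 thermogenic genes, 7 were called higher and 0 lower in CL cells. Elovl3 had 9.05, 8.98 and 8.70 in CL cells, against 5.06, 5.02 and 6.17 in RG cells (RG 2, RG 3 and RG 4; log2 difference 3.49 ± 0.38, adjusted p = 0.00145). Phospho1 had 7.50, 7.69 and 7.07 in CL cells, against 4.87, 5.45 and 5.43 in RG cells (2.17 ± 0.24, adjusted p = 0.00155). Acot11 had 5.72, 6.28 and 6.37 in CL cells, against 3.93, 3.85 and 4.59 in RG cells (2.00, adjusted p = 0.00274). The calls of Elovl3, Phospho1 and Acot11 stood when any 1 CL or RG array was left out, with adjusted p-values of at most 0.0175, 0.0175 and 0.0355. Slc27a2 had 5.98, 6.21 and 4.97 in CL cells, against 3.20, 2.96 and 4.43 in RG cells, and its call (adjusted p = 0.0124) was lost without RG 2 or RG 3 (up to 0.0633). Cox7a1 and Ppp1r3b, higher by 1.78 and 1.87 in CL cells (adjusted p = 0.0161 and 0.0128), also lost their calls without RG 3 (0.0763 and 0.0642). Ucp1 had 10.53, 10.52 and 10.19 in CL cells, against 7.69, 7.96 and 8.88 in RG cells, both gated on UCP1. Its call (2.24 ± 0.50, adjusted p = 0.0307) was lost without any 1 of CL 1, CL 3, CL 4, RG 2 and RG 3 (up to 0.118).

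Peg3, a paternally expressed zinc finger gene, had 4.51, 5.21 and 4.39 in CL cells, against 6.41, 6.53 and 6.57 in RG cells (log2 difference -1.80 ± 0.28, adjusted p = 0.0097; 0.0522 without RG 3). Nnat, neuronatin, a paternally expressed membrane protein, had 5.63, 5.37 and 5.12 in CL cells, against 7.46, 7.48 and 7.40 in RG cells (-2.07 ± 0.35, adjusted p = 0.0125; 0.0596 without RG 3). Alkal2, a ligand of the receptor ALK, had 3.63, 3.83 and 4.55 in CL cells, against 6.06, 6.30 and 5.24 in RG cells (-1.86 ± 0.32, adjusted p = 0.0125; 0.0697 without RG 3). None of these genes overlapped between the groups. Cers6, which makes ceramides with shorter acyl chains, Celsr2, an adhesion receptor of the cadherin family, and Ifit1 had log2 differences of -1.96, -2.20 and -1.83, with adjusted p-values of 0.0172, 0.0229 and 0.0421 that rose to 0.0841 without RG 3, 0.0826 without CL 1 and 0.157 without RG 2. Kdr, a receptor of VEGF on endothelial cells, had 8.55, 9.08 and 7.95 in CL cells, against 5.87, 6.03 and 7.31 in RG cells (2.12 ± 0.55, adjusted p = 0.0492; 0.171 without RG 2). Beside it, the summed endothelial markers had 11.40 to 12.47 in CL arrays and 9.75 to 11.15 in RG arrays, and 2 of 21 were called higher. Cpa3, a protease of mast cells, had 5.88, 6.55 and 4.63 in CL cells, against 2.36, 3.03 and 3.31 in RG cells (2.79 ± 0.53, adjusted p = 0.0169; 0.0782 without RG 2). Mast cell markers summed to 7.20 to 8.19 in CL and 6.14 to 6.66 in RG. The part of endothelial and mast cells in these 2 genes was not tested.

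**Figure D5:**
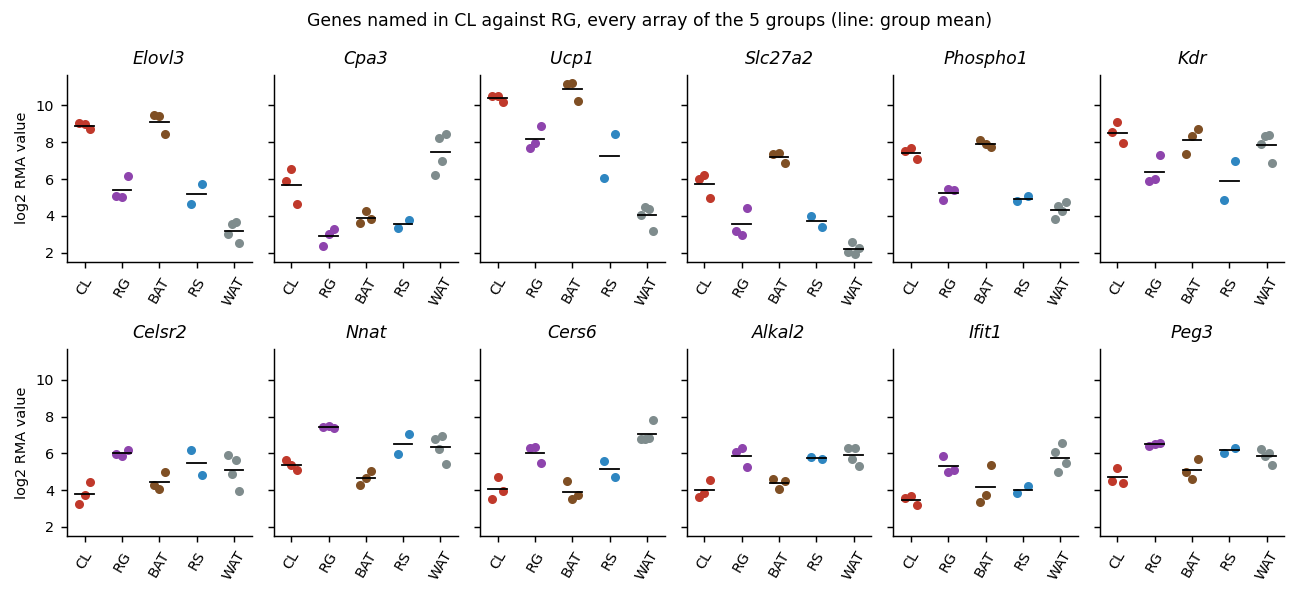
Expression (log2 value, y axis) of the 12 genes named in CL against RG, 1 point per array in CL, RG, BAT, RS and WAT cells, with a line at each group mean. Elovl3 averages 8.91 in CL and 9.11 in BAT cells, against 5.42 in RG, 5.19 in RS and 3.20 in WAT cells; Nnat and Peg3 average 5.37 and 4.70 in CL, against 7.45 and 6.50 in RG cells.

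Against brown adipocytes, 517 probe sets were called (2.05%), 160 higher (0.635%) and 357 lower (1.42%) in CL cells, and leaving out 1 CL or BAT array gave 122 (CL 3) to 512 (BAT 3), with 128 without CL 1, 248 without BAT 1, 250 without CL 4 and 285 without BAT 4. Leaving out 1 array of another group gave 298 (RG 2) to 672 (RS 3 or RS 4), with 305 without WAT 2. Kng2, a kininogen, had 2.74, 2.84 and 2.95 in CL cells, against 6.18, 5.93 and 5.54 in BAT cells (BAT 1, BAT 3 and BAT 4; log2 difference -3.04 ± 0.23, adjusted p = 1.67e-05). Acsl5 had 7.06, 7.01 and 7.05 in CL cells, against 8.65, 8.48 and 8.07 in BAT cells (-1.36 ± 0.18, adjusted p = 0.00509). So Acsl5 was higher than in WAT and lower than in BAT. Of the 18 thermogenic genes 0 were called higher and 3 lower than in BAT: Slc27a2, Acot11 and Pank1, which makes coenzyme A (the last not in the naming rule and listed because the count is small). Acot11 had 5.72, 6.28 and 6.37 in CL cells, against 7.47, 7.85 and 7.21 in BAT cells (-1.39 ± 0.24, adjusted p = 0.0133; 0.0521 without CL 1). Slc27a2 fell by 1.51 (adjusted p = 0.0452), a call lost without any 1 CL or BAT array (up to 0.126). Ucp1 averaged 10.41 in CL and 10.87 in BAT cells. Atp1b1, a subunit of the sodium pump, fell by 1.66 ± 0.26 (adjusted p = 0.0101), and Sorcs2, a sorting receptor of neurons, had -2.02 ± 0.46 (adjusted p = 0.0388; up to 0.122 with 1 array left out).

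Hoxc8, a homeobox gene of posterior body position, had 5.96, 6.43 and 7.01 in CL cells, against 4.97, 4.93 and 3.79 in BAT cells (log2 difference 1.90 ± 0.34, adjusted p = 0.0149), and averaged 5.93 in WAT cells of the same inguinal depot. H2-DMb2, a chaperone of MHC class II, had 8.88, 9.93 and 7.01 in CL cells, against 3.47, 2.03 and 5.05 in BAT cells (5.09 ± 0.74, adjusted p = 0.00774). Both genes separated the groups. H2-DMb2 averaged 8.61 in CL, 7.52 in RG, 3.52 in BAT, 6.18 in RS and 7.41 in WAT cells, so BAT cells were the low group. Cks1b, a partner of cyclin-dependent kinases, and Pcdha3, of a cluster of protocadherins that share exons, were higher by 1.79 and 1.97 (adjusted p = 0.0103 and 0.00906). Alb and Mup3, genes of secreted liver proteins, had differences of 2.40 and 3.43 (adjusted p = 0.0281 and 0.0427), and both calls were lost without any 1 CL or BAT array (up to 0.0887 and 0.118). Mup3 belongs to a family of near-identical genes.

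Against roscovitine cells, 321 probe sets were called (1.27%), 201 higher (0.797%) and 120 lower (0.476%) in CL cells, and leaving out 1 CL or RS array gave 41 (CL 3) to 566 (RS 4), with 83 without RS 3, 105 without CL 1 and 110 without CL 4. Leaving out 1 array of another group gave 133 (WAT 2) to 375 (WAT 4), with 153 without RG 2, 181 without WAT 3 and 198 without WAT 1. RS holds 2 arrays, which differed from each other, and the fit assumes that its arrays vary as much as those of the rest. Of the 18 thermogenic genes 8 were called higher and 0 lower in CL cells. Elovl3 had 9.05, 8.98 and 8.70 in CL cells, against 4.67 and 5.71 in RS cells (RS 3 and RS 4; log2 difference 3.72 ± 0.42, adjusted p = 0.00182). Phospho1 had 7.50, 7.69 and 7.07 in CL cells, against 4.79 and 5.07 in RS cells (2.49 ± 0.27, adjusted p = 0.00182). The 2 calls stood without any 1 CL or RS array (at most 0.0286 and 0.0241). Ucp1 had 10.53, 10.52 and 10.19 in CL cells, against 6.05 and 8.43 in RS cells (3.17 ± 0.56, adjusted p = 0.0202; 0.0989 without RS 3). Rrp7a, of ribosomal RNA processing, had 4.26, 3.90 and 4.57 in CL cells, against 5.74 and 5.71 in RS cells (-1.48 ± 0.22, adjusted p = 0.00869), and averaged 5.55 in WAT cells. Alkal2 and Peg3 were lower than in RS cells too, with log2 differences of -1.74 and -1.46 (adjusted p = 0.0339 and 0.0362; up to 0.113 without RS 3 and 0.0961 without RS 4). Cmklr1, the chemerin receptor, and Ifrd1, a regulator of differentiation, had log2 differences of -1.55 and -1.47 (adjusted p = 0.0311 and 0.0187), calls lost without RS 3 (0.117 and 0.0945). Kdr, Gpihbp1, which holds lipoprotein lipase on capillaries, and Rasgrp3, a Ras activator of endothelium and lymphocytes, were higher by 2.62, 2.57 and 2.31 (adjusted p = 0.0493, 0.0493 and 0.0386; 0.268, 0.281 and 0.191 without RS 3). Endothelial markers summed to 11.40 to 12.47 in CL arrays and 8.70 to 10.94 in RS arrays, with 5 of 21 called higher, and their part in these genes was not tested.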

How the data were processed

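Sorted mouse adipocytes were profiled on 15 Affymetrix arrays in 5 groups. The deposited values are log2 expression per probe set. The authors made them with RMA, and affy 1.36.1 and Affymetrix Expression Console are named as well, per the submitters' processing notes. RMA subtracts background, normalizes and summarises probes, and low values carry little signal. The probe-set definition is not given in the sources used here. Probe sets were named through Entrez IDs and a RefSeq table (23185 with 1 symbol, 2021 without).

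limma 3.58.1 in R 4.3.3 was fitted to all 25206 probe sets and all 15 arrays, with group as the only term, eBayes and Benjamini-Hochberg adjustment. It was tested on simulated data. Tables and plots used Python 3.11.15, pandas 2.3.3 and matplotlib 3.10.9. The number of arrays limits the precision.

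The named genes were the 12 with the largest change in each direction (adjusted p under 0.05, mean over 5 in the higher group, groups not overlapping), set members of each list and its 4 smallest p-values, and the 6 largest changes each way against RG, BAT and RS. Members and 55 gene lists were chosen with earlier results of these data known. Of the listed genes, 114 were not matched. Alternatives were array weights, an intensity trend, a mean over 4, median centring, quantile normalization, only the groups compared, the replicate block and leaving out each array. Leaving out WAT 4 with RS 3, and quantile normalization of CL and WAT alone, were added after seeing the data. Promoter windows came from RefSeq, GRCm38.p6. 1 gene that the rule names against RS is not reported here.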

Additional observations from a re-analysis of the deposited data

Results flagged for a closer look

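In the groups of 4 WAT arrays, 7 of the genes described had 1 array far from the other 3, with Dixon's ratio above its critical value. Chance flags about 1 in 20 such groups, and 224 genes were tested, so 7 flags are no more than chance alone would give. WAT 4 stood out for 6 of the 7 genes. It was high for Ccl3 (8.81), Cers6 (7.82) and the surface marker Tmem26 (6.14), and low for Cd209g (7.02), Esrra (5.28) and Ppara (2.98). WAT 3 stood out for the creatine kinase Ckb (4.45). In the same array WAT 4, summed macrophage markers were highest (12.64, in a WAT range of 11.59 to 12.64) and mature adipocyte markers lowest (13.01, in a WAT range of 13.01 to 14.43). Their part in these values was not tested.

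Of the 24 genes named for the largest differences between CL and WAT cells, 7 also differed between the changes after CL316243 and after rosiglitazone. All 7 were higher in CL cells, and of all probe sets 2.87% were called between CL and RG cells. The 24 genes were picked on the same CL arrays that enter the comparison with RG cells. For the increases that comparison therefore leans towards CL, so the count is a description and not independent support. Other genes described were called between CL and RG cells too and were not part of this screen. Since CL and RG cells were both set against the same WAT arrays, the test of the difference is limma's contrast of CL with RG cells. Elovl3 was higher in CL than in RG cells by 3.49 log2 units (adjusted p = 0.00145), Phospho1 by 2.17 (0.00155) and Acot11 by 2.00 (0.00274). Ucp1 differed by 2.24 (0.0307), Slc27a2 by 2.19 (0.0124), Ppp1r3b by 1.87 (0.0128) and Cox7a1 by 1.78 (0.0161). For each gene every CL array was above every RG array. The calls of Ucp1, Slc27a2, Ppp1r3b and Cox7a1 were lost without RG 3 among other arrays, with adjusted p-values of up to 0.118, 0.0633, 0.0642 and 0.0763.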

How the results depend on the processing

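Counts of calls depended on the processing more than directions did: in no alternative did any of the 224 genes with values in the text change its direction while called. CL against WAT gave 6350 calls, but 2767 with probe sets of a mean over 4, 3152 after quantile normalization, 3446 after quantile normalization of CL and WAT alone (chosen after seeing the data), and 3560 (without CL 4) to 6820 with 1 array left out. It gave 4916 without WAT 4 and RS 3, also chosen after seeing the data. CL against RG gave 724, but 2615 with array weights, 305 with a mean over 4, 442 after quantile normalization, 28 to 347 with 1 CL or RG array left out and 410 to 960 with 1 array of another group left out. CL against BAT gave 517, but 75 with a mean over 4, 41 with only these groups, 122 to 512 with 1 CL or BAT array left out and 298 to 672 with 1 of another group left out. CL against RS gave 321, but 20 with array weights, 4 with only these groups, 41 to 566 with 1 CL or RS array left out and 133 to 375 with 1 of another group left out. Without WAT 4 and RS 3 together, the counts were 1189 against RG, 846 against BAT and 121 against RS. A mean over 4 tests fewer probe sets and fits of only 2 groups have fewer arrays; for the others the cause was not tested. Against WAT, 60.4% of calls were higher, 50.7% after median centring, 50.9% after quantile normalization, 50.4% after quantile normalization of CL and WAT alone, 50.2% with the replicate number as a block and 30.4% with a mean over 4. The share of higher calls moved from 57.5% to 43.9% (median centring) and 49.5% (quantile normalization) against RG (29.2% with a mean over 4), from 30.9% to 41.4% and 42.4% against BAT (68.0% with a mean over 4), and from 62.6% to 50.3% (quantile normalization) against RS (73.4% with a mean over 4). Same-numbered CL and WAT arrays had deviations from their group means that correlated at -0.305, -0.207 and -0.405. For CL and WAT arrays with unlike numbers the range was -0.167 to 0.393. Same-numbered CL and BAT arrays had -0.291, -0.16 and -0.235. These values showed no positive pairing. Deviations within groups of 3 or 4 arrays depend on each other, so they cannot decide whether the numbers pair the samples. CL shares only 2 numbers with RG (-0.0601 and -0.0498) and 2 with RS (-0.295 and -0.288), too few to show a pairing. With the number as a replicate block, the calls were 2461 against WAT, 1 against RG, 7 against BAT and 13 against RS. Against RG, Elovl3, Phospho1 and Acot11 then had adjusted p-values of 0.0515, 0.0583 and 0.0819, and against RS Elovl3 and Phospho1 both had 0.0257. Of the 151 genes called against WAT, 28 were not called with the block, 25 without CL 4 and 13 after quantile normalization. Low signal limits probe sets with a mean under 4, where 3024 were called higher, or 515 after quantile normalization.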
